A study of Mus musculus with 4 samples.

Results

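The 40 genes described here encode collagen chains and the proteins that modify, fold, trim and cross-link them. They were chosen by name, 26 as collagen chains and 14 as modifying genes, and all 40 were read on the array, out of 19939 genes tested. The cells were Py2T, an epithelial mouse breast cancer line that turns mesenchymal under TGFβ, a change known as EMT. Total RNA came from 2 samples grown without TGFβ and 2 samples given TGFβ at 2 ng/ml for 5 days, labelled as biological replicates, and all 4 shared the same serum-containing medium. Every value below is a log2 expression value of 1 probe set per gene, and a gene was called when its limma p, after Benjamini-Hochberg adjustment across the 19939 genes, was under 0.05.

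Collagens are secreted proteins whose chains wind around each other in helices. Inside the cell, prolyl 4-hydroxylases stabilise the helix, lysyl hydroxylases prepare lysines for glycosylation and cross-linking, and the chaperone Hsp47, encoded by Serpinh1, escorts the folded molecule. Outside the cell, Bmp1 and its enhancer Pcolce trim procollagen, and lysyl oxidases of the Lox family begin the covalent cross-links. Fibrillar collagens make the stiff fibres of stroma, collagen IV makes the sheet of the basement membrane under epithelia, and TGFβ is widely known as an inducer of matrix genes in fibroblasts.

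The arrays were alike in scale, with medians over all 35556 probe sets between 6.742 and 6.756. Of 6 epithelial and luminal markers, Krt8, Krt18, Krt7, Epcam and Cdh1 were measured well above that median in all samples, while the luminal keratin Krt19 read 6.11 and 6.10 against 6.03 and 6.01, below it. The adhesion genes of that list were called lower, E-cadherin Cdh1 falling by 1.25 (adjusted p = 0.017) and Epcam by 1.10 (adjusted p = 0.0094). Of 8 fibroblast markers 6 had both group means under 7, among them Lum, Dpt and Fap, and the mean level of the list was between 5.71 and 5.74 in untreated and between 5.82 and 5.99 in TGFβ samples. Pdgfrb was the member of that list that rose, by 1.01 (adjusted p = 0.0011). Pdgfra, the other of the 8 with a mean of 7 or more, read 8.33 and 8.41 against 8.64 and 9.08, a difference of 0.49 that did not pass (adjusted p = 0.097). All 5 endothelial, all 5 pericyte and smooth muscle and 3 of 4 leukocyte markers also had both means under 7, while the lysosomal macrophage marker Cd68 read 9.63 and 8.87 against 7.60 and 8.33 (adjusted p = 0.052). The values come from bulk RNA, so fewer expressing cells and less RNA per cell cannot be told apart, and whether any of these cell types bears on the collagen genes was not tested.

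After TGFβ the modifying genes showed larger differences than the collagen chains, which were also dimmer. Of the 14 modifying genes 6 rose, 2 fell and 6 did not pass (57.1% called). Of the 26 chains 4 rose, 3 fell and 19 did not pass (26.9% called, against 13.6% of all genes). Over all 40 genes this gives 10 rises and 5 falls, or 37.5% called, where 13.6% of all genes were called, 6.49% higher and 7.15% lower. The median size of the difference, whatever its sign, was 0.48 for the modifying genes and 0.09 for the chains, against 0.10 for all genes. Both means were under 7 in 8 of the chains and 2 of the modifying genes, so these medians compare sets of unlike brightness. Without the dimmer 50% of genes, 13 chains remained with 3 called higher and 4 lower, and 12 modifying genes with 6 and 2. Whether brightness accounts for the gap between the medians was not tested. The largest rises were those of Loxl2, a lysyl oxidase, at 4.29-fold, and Plod2, a lysyl hydroxylase, at 3.57-fold. Both groups of arrays stood apart, without overlap, for 25 of the 40 genes, a pattern that 52.6% of all genes also showed.

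Fits that leave out 1 array have 1 array in its group, so a gene's own spread there comes from the other group alone. A call kept in such a fit does not measure the spread in the reduced group. The calls differed in how firmly they stood. Those of Col7a1, Loxl2, Loxl4, Plod1, Plod2 and P4ha2 held when any of the 4 arrays was left out, and the other 9 were lost without at least 1 array, as given beside each gene. With every probe set of the array tested instead of 1 per gene, 7 of the 15 calls remained, those 6 and Col5a3. The plot of differences by class shows intervals clear of 0 for 5 of the 6 hydroxylases, P4ha1 being the exception, and intervals about 0 for most chains.

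**Figure D1:**
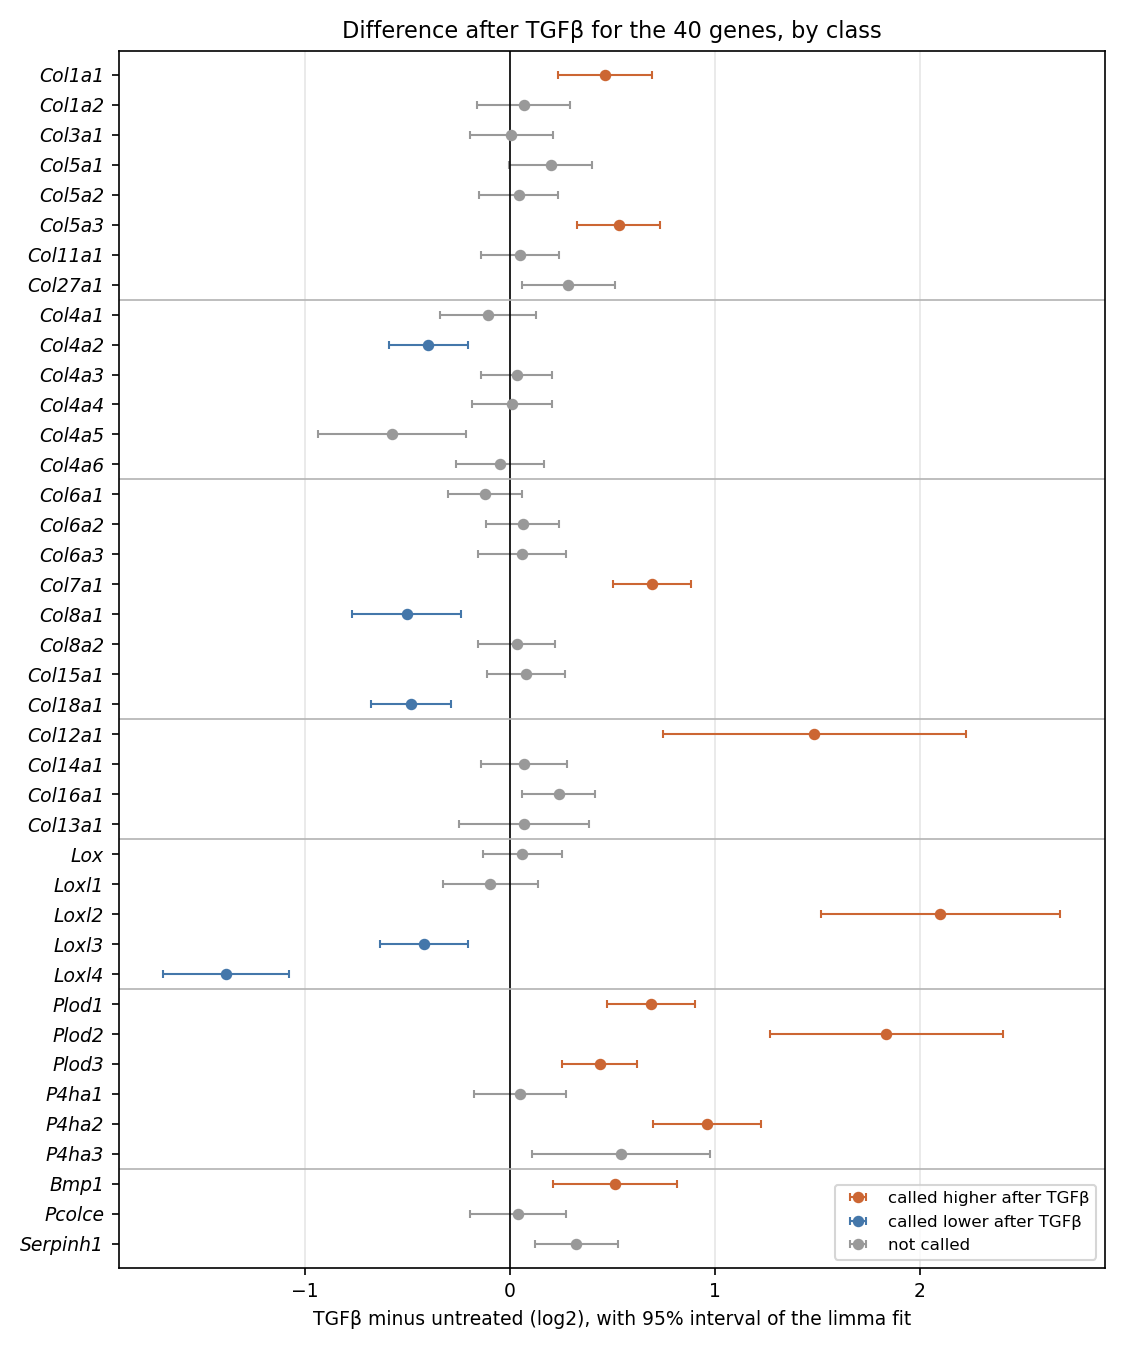
TGFβ minus untreated difference (log2, horizontal axis) for each of the 40 genes, with the 95% interval of the limma fit from 2 arrays per group; colour marks the call and grey lines part the classes. Loxl2, Plod2 and Col12a1 lie farthest to the right at 2.10, 1.84 and 1.48, and Loxl4 farthest to the left at -1.39.

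Promoter sequence is shown for the called genes because they changed under the same signal, whose Smad effectors are known to bind a short box, CAGAC. RefSeq promoter windows (GRCm38.p6) were at hand for 29 of the 40 genes, in 31 windows, and were read over the 250 bases before the start. The windows printed are those of called genes with 1 listed start and no annotated gene inside the window. Each runs 5′ to 3′ on the gene's strand, and capitals mark CAGAC or its reverse complement GTCTG, the TEAD motif GGAATG or CATTCC, and the core of the hypoxia factor motif, ACGTG or CACGT. None of these motifs overlap in the windows printed.
Plod1, a lysyl hydroxylase that rose, chr4:147936777-147937026, minus strand: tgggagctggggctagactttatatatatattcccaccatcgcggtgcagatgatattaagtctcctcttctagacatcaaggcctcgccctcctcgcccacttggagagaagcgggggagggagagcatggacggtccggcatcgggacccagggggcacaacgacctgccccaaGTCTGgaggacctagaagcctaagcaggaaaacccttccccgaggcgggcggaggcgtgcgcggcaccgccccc
P4ha2, a prolyl 4-hydroxylase subunit that rose, chr11:54100674-54100923, plus strand: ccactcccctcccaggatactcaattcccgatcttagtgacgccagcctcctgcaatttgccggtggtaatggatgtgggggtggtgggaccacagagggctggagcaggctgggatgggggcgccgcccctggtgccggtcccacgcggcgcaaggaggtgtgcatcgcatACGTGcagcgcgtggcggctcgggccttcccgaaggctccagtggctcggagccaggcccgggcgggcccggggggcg
Col7a1, the anchoring fibril collagen, which rose, chr9:108953336-108953585, plus strand: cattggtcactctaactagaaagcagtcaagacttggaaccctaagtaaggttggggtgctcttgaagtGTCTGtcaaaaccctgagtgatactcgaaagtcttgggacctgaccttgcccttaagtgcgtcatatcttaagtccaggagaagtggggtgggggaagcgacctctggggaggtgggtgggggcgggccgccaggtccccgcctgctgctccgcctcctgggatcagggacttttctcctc
Loxl4, a lysyl oxidase that fell, chr19:42612807-42613056, minus strand: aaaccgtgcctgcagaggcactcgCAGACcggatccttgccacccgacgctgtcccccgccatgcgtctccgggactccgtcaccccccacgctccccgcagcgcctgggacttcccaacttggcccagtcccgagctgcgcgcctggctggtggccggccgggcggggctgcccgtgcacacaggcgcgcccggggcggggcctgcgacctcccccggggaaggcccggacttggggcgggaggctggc
Col8a1, a network collagen chain that fell, chr16:57754738-57754987, minus strand: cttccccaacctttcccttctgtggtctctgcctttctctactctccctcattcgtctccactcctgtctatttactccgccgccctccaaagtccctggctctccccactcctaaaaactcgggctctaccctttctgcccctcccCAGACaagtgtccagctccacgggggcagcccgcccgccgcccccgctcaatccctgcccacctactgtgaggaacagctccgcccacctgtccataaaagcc

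CAGAC stood in the windows of Plod1, Col7a1, Loxl4 and Col8a1, so in genes that rose and in genes that fell. Of 31 windows of the 40 genes 14 held it (45.2%), and of all 32851 promoter windows of that length 42.2% did. By call it stood in 2 of 5 windows of genes that rose, 4 of 5 of genes that fell and 8 of 21 of genes not called. The TEAD motif was in 3 of the 31 windows (9.68%) against 12.6% of all. By call it was in 0 of 5 windows of genes that rose, 1 of 5 that fell and 2 of 21 not called. With 12.6% of all windows holding it, 0 of 5 is near the background. Of the genes that rose, Loxl2, Plod2, Col12a1, Col1a1 and Bmp1 had no window at hand. ACGTG was in 7 of the 31 (22.6%) against 16.6% of all, including that of P4ha2. Matches of this length are descriptions of the letters and say nothing of binding.

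The lysyl oxidases went in opposite directions. These copper enzymes oxidise lysines of collagen and elastin, and Loxl2, Loxl3 and Loxl4 carry scavenger receptor domains that Lox and Loxl1 lack. Loxl2 read 6.65 and 6.76 in untreated samples and 9.19 and 8.43 in TGFβ samples. Both TGFβ arrays lay far above both untreated arrays, with TGFβ replicate 1 the higher. The difference was 2.10 ± 0.24 (log2, SE, adjusted p = 0.0044), and 0.677% of genes differed by more. Without TGFβ replicate 1 it was 1.72 and without TGFβ replicate 2 it was 2.48. Its probe set also lists the predicted gene Gm21451, so the signal cannot be assigned to Loxl2 alone, and its untreated level was near the array's median, where background limits a fold.

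Loxl4 read 10.70 and 10.64 in untreated and 9.11 and 9.46 in TGFβ samples. The groups stood well apart, and Loxl4 fell by 1.39 ± 0.12 (2.61-fold, adjusted p = 0.0021), the largest fall among the 40 genes. A second probe set of Loxl4 read 10.24 and 10.08 against 8.62 and 8.89, a difference of -1.40, so both probe sets moved alike. Loxl3 read 8.56 and 8.42 against 8.13 and 8.02 and fell by 0.42 ± 0.09 (adjusted p = 0.031). That call needed all 4 arrays, since dropping untreated replicate 1 or 2 raised the adjusted p to 0.16 or 0.060, and dropping TGFβ replicate 1 or 2 raised it to 0.061 or 0.10. Lox itself, the founding member of the family, read 5.29 and 5.40 against 5.39 and 5.43, among the dim probe sets where a change would be hard to see, and its difference was 0.06 (95% interval -0.13 to 0.25). Loxl1, best known for its part in elastic fibres, differed by -0.09 (95% interval -0.33 to 0.14), and its groups overlapped.

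All 3 lysyl hydroxylases were called higher, as were 6.49% of all genes. Plod2, whose product hydroxylates the telopeptide lysines that give stable cross-links, read 8.50 and 8.68 in untreated and 10.78 and 10.06 in TGFβ samples. The groups stood more than 1 log2 unit apart. The rise was 1.84 ± 0.23 (adjusted p = 0.0063), and it was 1.47 without TGFβ replicate 1 and 2.20 without TGFβ replicate 2. Plod1, which acts on lysines within the helix, read 9.95 in both untreated samples and 10.73 and 10.55 in TGFβ samples, a rise of 0.69 ± 0.09 (1.61-fold, adjusted p = 0.0065). Plod3, which also glycosylates the hydroxylysine it makes, read 10.64 in both untreated samples and 11.12 and 11.04 after TGFβ. Its rise of 0.44 ± 0.07 (adjusted p = 0.016) was smaller but lay outside a very narrow untreated spread. Plod3 no longer passed once untreated replicate 1, untreated replicate 2 or TGFβ replicate 1 was dropped, at adjusted p of 0.084, 0.076 and 0.064.

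The 3 catalytic subunits of prolyl 4-hydroxylase did not move together. P4ha2 read 8.58 and 8.31 in untreated and 9.43 and 9.38 in TGFβ samples. Its TGFβ arrays almost coincided, above both untreated arrays, with a rise of 0.96 ± 0.11 (1.95-fold, adjusted p = 0.0043). P4ha1, the widely expressed subunit, read 9.85 and 10.02 against 10.04 and 9.94, so the groups overlapped, and its 95% interval of -0.18 to 0.27 lay below that of P4ha2, 0.70 to 1.22. P4ha3 read 6.15 and 6.25 against 7.01 and 6.47. Both TGFβ arrays were higher but far from each other, and the difference of 0.54 ± 0.18 did not pass (adjusted p = 0.11). Without TGFβ replicate 2 it was 0.81, and without TGFβ replicate 1 it was 0.27.

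**Figure D2:**
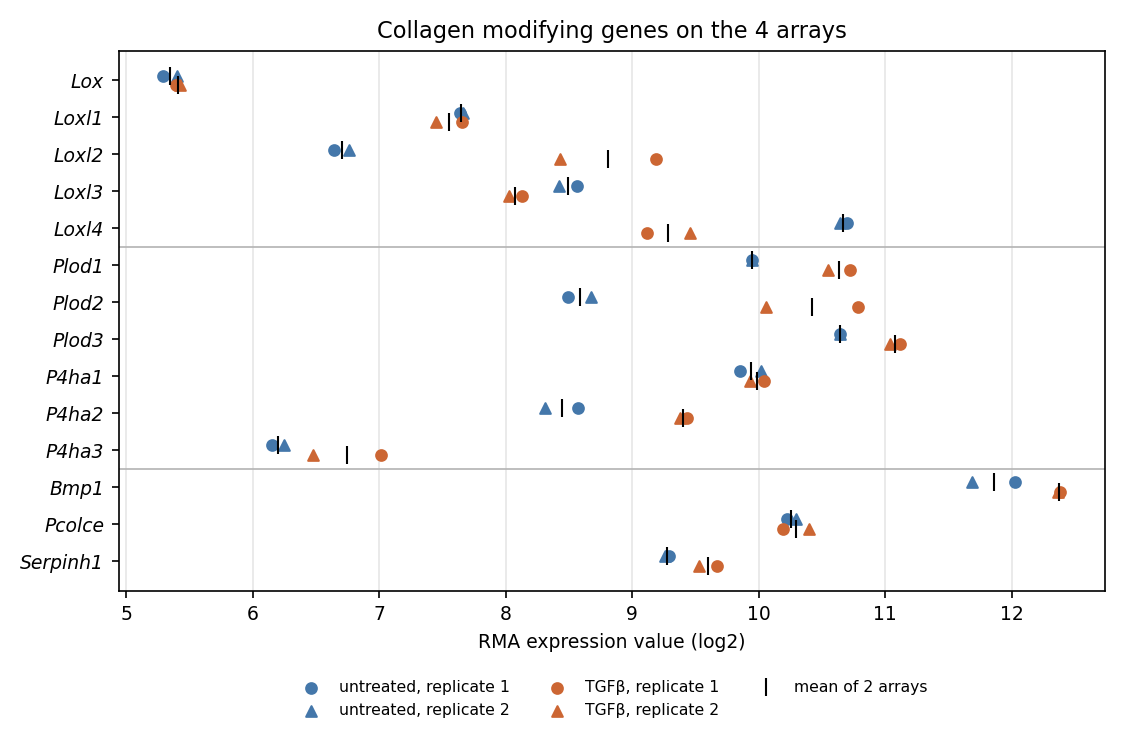
RMA log2 values (horizontal axis) of the 14 modifying genes on each of the 4 arrays; blue is untreated, orange TGFβ, shapes mark replicates and black ticks the mean of 2 arrays. Loxl2, Plod2 and P4ha3 show TGFβ arrays spread apart, while those of P4ha2 and Bmp1 nearly coincide.

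Of the processing and folding genes 1 of 3 passed, where 13.6% of all genes were called. Bmp1, the metalloprotease that removes the carboxy-terminal propeptide of fibrillar procollagens, read 12.03 and 11.69 in untreated and 12.38 and 12.37 in TGFβ samples and rose by 0.51 ± 0.12 (adjusted p = 0.046). This call was near the threshold: it did not survive cyclic loess (adjusted p = 0.068), nor the loss of untreated replicate 2, which gave 0.35 (adjusted p = 0.13). Dropping TGFβ replicate 1 or 2 likewise gave adjusted p of 0.13 or 0.11. Pcolce, which enhances Bmp1, read 10.22 and 10.29 against 10.19 and 10.40, with overlapping groups and a 95% interval of -0.20 to 0.28. Serpinh1, the collagen chaperone, read 9.29 and 9.26 against 9.67 and 9.53. Both TGFβ arrays were higher, and the difference of 0.33 ± 0.08 just missed the threshold (adjusted p = 0.056), which it passed after cyclic loess (adjusted p = 0.034).

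The main fibrillar chains showed small differences. Of 8 fibrillar collagen genes 2 rose, 0 fell (0 also at an unadjusted p under 0.05 in limma) and 6 did not pass, with a median difference of 0.13. That is 25% called, against 13.6% of all genes. With 7.15% of all genes called lower, 0 falls among 8 genes is near the background. Col1a1, the main chain of collagen I, read 7.84 and 8.03 in untreated and 8.43 and 8.37 in TGFβ samples, a rise of 0.46 ± 0.09 (1.38-fold, adjusted p = 0.027). With untreated replicate 1 dropped the Col1a1 difference was 0.37 and did not pass (adjusted p = 0.13), and with TGFβ replicate 1 or 2 dropped the adjusted p was 0.096 or 0.061. Its partner chain Col1a2 read 7.21 and 7.40 against 7.33 and 7.41, with overlapping groups and a 95% interval of -0.16 to 0.30. Col3a1, of collagen III, read 7.42 and 7.52 against 7.43 and 7.52, nearly the same values in both groups (95% interval -0.20 to 0.21).

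Collagen V chains take part in starting fibrils, and here they differed among themselves. Col5a3 read 7.18 and 7.26 in untreated and 7.81 and 7.69 in TGFβ samples and rose by 0.53 ± 0.08 (1.44-fold, adjusted p = 0.012). The groups stood clearly apart, and only the fit without untreated replicate 1 missed the threshold among those leaving out 1 array (0.49, adjusted p = 0.067). Col5a1 differed by 0.20 (adjusted p = 0.20) with groups that did not overlap, and Col5a2 by 0.04 at values near 6. Col27a1, a fibrillar collagen of cartilage, differed by 0.28 (adjusted p = 0.11), and Col11a1 by 0.05.

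**Figure D3:**
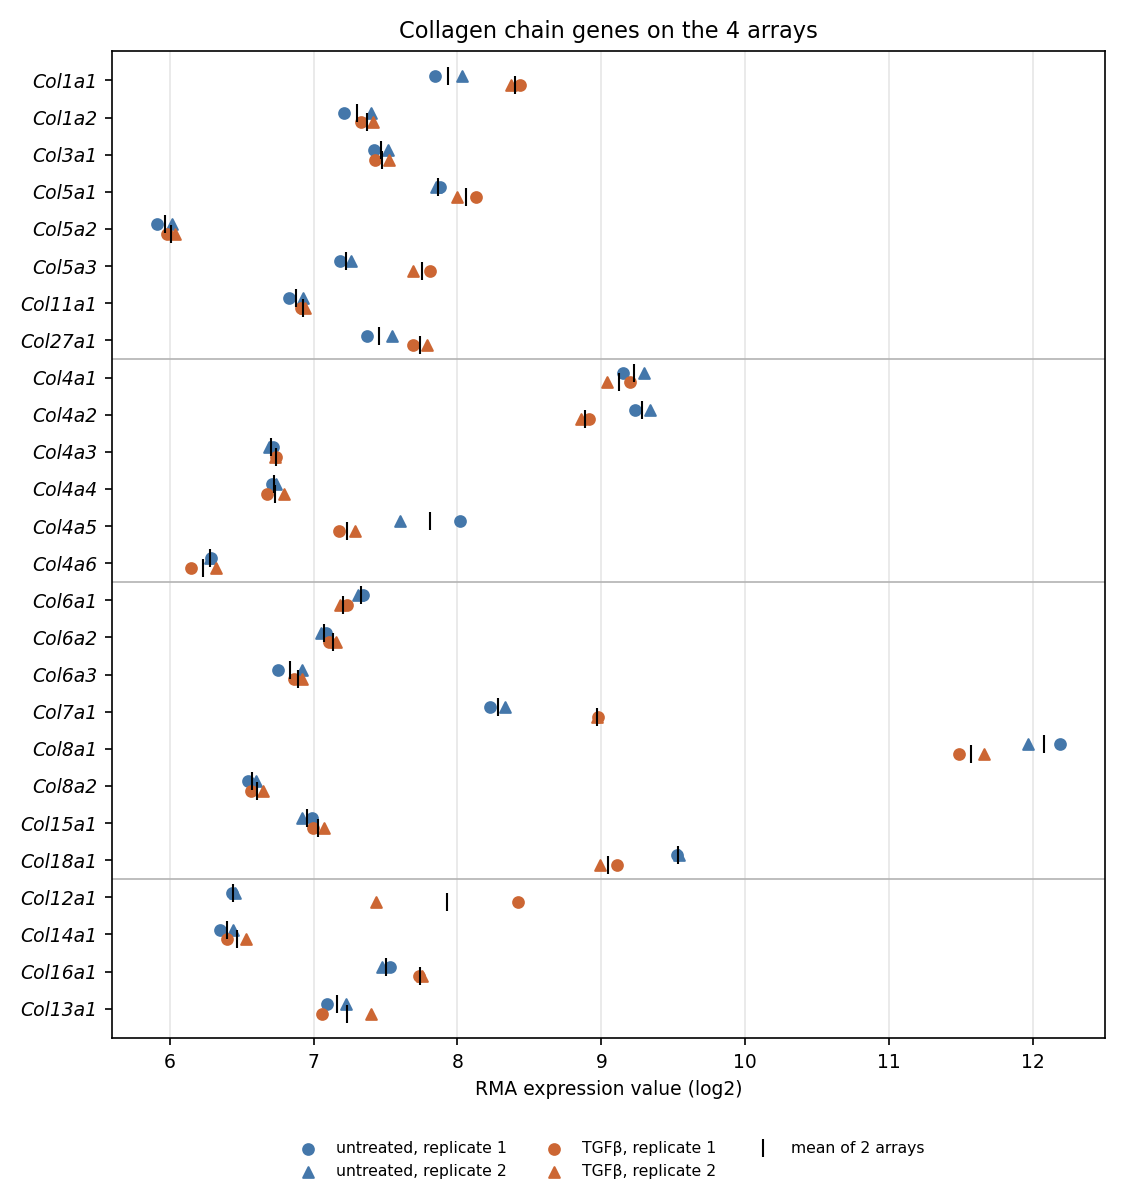
RMA log2 values (horizontal axis) of the 26 collagen chain genes on each of the 4 arrays, drawn as for the modifying genes, with grey lines between classes. For most chains the blue and orange points lie together, while Col12a1 has TGFβ values of 8.42 and 7.43 against untreated values of 6.44 and 6.45.

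Of 6 collagen IV genes 1, Col4a2, was called lower and 0 higher. That is 16.7% called, near the 13.6% of all genes. Col4a1 and Col4a2 encode the chains of the common collagen IV molecule and lie head to head on opposite strands. Their RefSeq starts have 20 bases between them, and these bases lie inside both genes, whose 5′ ends overlap. Col4a2 read 9.23 and 9.34 in untreated and 8.91 and 8.86 in TGFβ samples and fell by 0.40 ± 0.08 (adjusted p = 0.026). Col4a1 read 9.15 and 9.30 against 9.20 and 9.04, with overlapping groups and a difference of -0.11 (95% interval -0.34 to 0.13). The intervals of both genes overlap, and the difference between them was not tested. Col4a2 passed only with all 4 arrays, as dropping untreated replicate 1 or 2 gave adjusted p of 0.074 or 0.13, and dropping TGFβ replicate 1 or 2 gave 0.068 or 0.083.

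Col4a5, a chain of specialised basement membranes, read 8.02 and 7.60 in untreated and 7.17 and 7.28 in TGFβ samples. All TGFβ values were lower, but the untreated arrays were far apart, and the difference of -0.58 ± 0.15 did not pass (adjusted p = 0.056). Without untreated replicate 2 it was -0.79, and without untreated replicate 1 it was -0.37. The Col4a5 difference passed after median centring (adjusted p = 0.039) and when variances were modelled robustly with an intensity trend (adjusted p = 0.037). Col4a6, its neighbour gene on the X chromosome, and Col4a3 and Col4a4 had both means under 7 and differences between -0.05 and 0.03.

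Col18a1, the basement membrane collagen that releases endostatin, read 9.52 and 9.54 in untreated and 9.11 and 8.99 in TGFβ samples. The untreated arrays nearly coincided, and the fall was 0.48 ± 0.08 (1.40-fold, adjusted p = 0.015), a call that dropping untreated replicate 1 or 2 ended at adjusted p of 0.069 or 0.068. Its relative Col15a1 differed by 0.08 (adjusted p = 0.64). Col8a1, a short-chain network collagen known from the membrane under corneal endothelium, read 12.19 and 11.97 against 11.49 and 11.66 and fell by 0.50 ± 0.11 (adjusted p = 0.033). Col8a1 did not pass with untreated replicate 1 dropped (-0.40, adjusted p = 0.14) or with TGFβ replicate 1 dropped (-0.42, adjusted p = 0.12). The other collagen VIII chain, Col8a2, was dim and differed by 0.03.

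Col7a1 went the other way. Its product forms the anchoring fibrils that fix the epidermal basement membrane to the stroma. It read 8.23 and 8.33 in untreated and 8.98 and 8.97 in TGFβ samples, a rise of 0.69 ± 0.08 (1.61-fold, adjusted p = 0.0043), with a gap between groups much wider than either spread. Leaving out any array gave 0.64 to 0.74. The collagen VI chains, which form beaded filaments, gave no call: Col6a1 differed by -0.12, Col6a2 by 0.06 and Col6a3 by 0.06.

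Col12a1 had the largest rise of any chain. It belongs to the FACIT collagens, which sit on the surface of fibrils. It read 6.44 and 6.45 in untreated samples, below the array's median, and 8.42 and 7.43 in TGFβ samples. Both TGFβ arrays were clearly higher but about 1 log2 unit apart, and the rise was 1.48 ± 0.30 (2.80-fold, adjusted p = 0.028). It was 1.98 without TGFβ replicate 2 and 0.99 without TGFβ replicate 1. It did not pass with untreated replicate 1 or 2 dropped, at adjusted p of 0.083 or 0.075, nor when variances were modelled robustly with an intensity trend (adjusted p = 0.063). The FACIT collagens Col14a1 and Col16a1 differed by 0.07 and 0.24 (adjusted p = 0.73 and 0.094), and the transmembrane collagen Col13a1 by 0.07 with overlapping groups.

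In 10 of the 40 genes both group means were under 7, namely Col5a2, Col11a1, Col4a3, Col4a4, Col4a6, Col6a3, Col8a2, Col14a1, Lox and P4ha3. No detection calls come with the values, so these genes may be silent or too dim to read. Limma called 0 of them, with 1, P4ha3, at an unadjusted p under 0.05. With 13.6% of all genes called, 0 of 10 is near the background.

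The wider pathway was read from lists of other genes. Of 18 other collagen chains 0 were called by limma, and 0 at an unadjusted p under 0.05, with differences between -0.08 and 0.23. With 13.6% of all genes called, few calls would be expected among 18 genes, and 8 of them had both means under 7. Of 26 measured genes of collagen biosynthesis and secretion, 2 of them that dim, 13 rose, 2 fell and 11 did not pass (median 0.44). That is 57.7% called, against 13.6% of all genes. Fkbp14, an endoplasmic reticulum prolyl isomerase, rose by 1.94 (3.82-fold, adjusted p = 2.6e-04), from 7.41 and 7.38 to 9.35 and 9.32. P3h4, a cofactor of the lysyl hydroxylase complex, rose by 1.21 (adjusted p = 0.0019). Tll1, a relative of Bmp1, read 5.57 and 5.61 against 7.63 and 6.59 and rose by 1.52 (adjusted p = 0.031). Without TGFβ replicate 1 the Tll1 rise was 1.00, and dropping untreated replicate 1 or 2 ended the call at adjusted p of 0.091 or 0.079.

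Of the 3 prolyl 3-hydroxylases 1 rose, 1 fell and 1 did not pass, where 13.6% of all genes were called. P3h2, known for modifying basement membrane collagen IV, read 8.64 and 9.34 in untreated and 7.18 and 6.85 in TGFβ samples and fell by 1.98 ± 0.24 (3.94-fold, adjusted p = 0.0056). P3h1, which acts on fibrillar collagens and was chosen after its values were seen, read 7.28 and 7.31 against 8.32 and 8.20 and rose by 0.96 ± 0.08 (adjusted p = 0.0016). For P3h2 and P3h1 the groups stood apart, and both calls held without any 1 array. P3h3 read 7.45 and 7.46 against 7.42 and 7.56, with overlapping groups and a difference of 0.03 (adjusted p = 0.89). Adamts14, an amino-terminal procollagen protease, fell by 0.47 (adjusted p = 0.046), a call that ended at adjusted p of 0.18 or 0.12 when untreated replicate 1 or 2 was dropped and at 0.12 (difference -0.33) when TGFβ replicate 1 was.

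Of 16 collagen binding and assembly genes 4 rose, 2 fell and 10 did not pass (median 0.03), so 37.5% were called against 13.6% of all genes. Both means were under 7 in 7 of the 16. Aebp1, a collagen-binding matrix protein, rose by 1.23 (adjusted p = 8.7e-04), the proteoglycan Bgn by 0.72 (adjusted p = 0.0072) and fibulin-2, Fbln2, by 0.70 (adjusted p = 0.0062). Thrombospondin-1, Thbs1, fell by 0.59 (adjusted p = 0.012), though not with untreated replicate 1 dropped (adjusted p = 0.061). The dim tenascin Tnxb fell by 0.49 (adjusted p = 0.038), and did not pass when untreated replicate 1 or 2 (adjusted p of 0.13 or 0.12) or TGFβ replicate 1 (-0.35, adjusted p = 0.090) was dropped.

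Of 15 measured receptors and degrading enzymes 4 rose and 0 fell in limma, 0 also at an unadjusted p under 0.05. Both means were under 7 in 8 of the 15. Over all genes 6.49% were called higher and 7.15% lower, so a count of 0 falls among 15 genes is near the background. Itgb1, the beta subunit of the collagen-binding integrins, rose by 0.81 (adjusted p = 0.0024). The collagenase Mmp13 read 8.76 and 7.77 against 10.32 and 12.39 with a wide spread in both groups, and rose by 3.09 (adjusted p = 0.037). Without TGFβ replicate 1 or 2 the Mmp13 rise was 4.13 or 2.06, and dropping untreated replicate 1 or 2 ended the call at adjusted p of 0.0504 or 0.11. It also ended when variances were modelled robustly with an intensity trend (adjusted p = 0.24). The gelatinase Mmp9 rose by 0.98 (adjusted p = 0.026), though dropping untreated replicate 2 or TGFβ replicate 1 ended the call at adjusted p of 0.062 or 0.084.

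**Figure D4:**
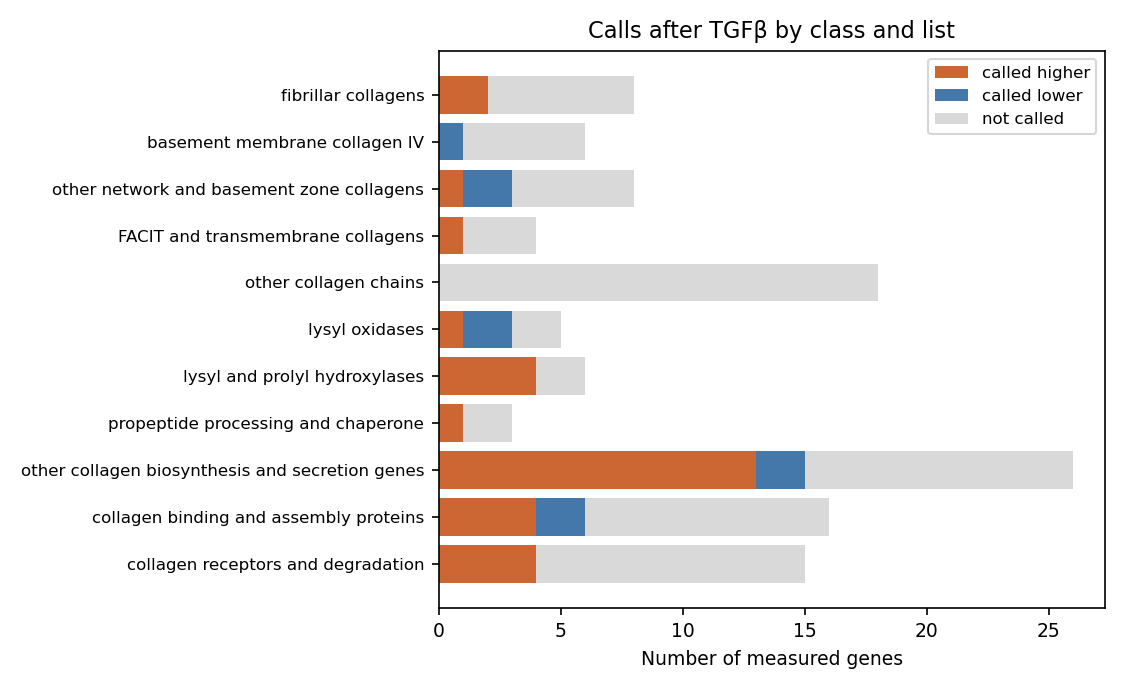
Number of measured genes (horizontal axis) called higher, called lower or not called after TGFβ in each class of the 40 genes and in 4 further lists of the pathway. Calls are 13 higher and 2 lower among 26 biosynthesis and secretion genes, and 0 among 18 other collagen chains. Both means were under 7 in 2 and 8 of these genes, and 13.6% of all genes were called.

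The size of the response was not the same on both TGFβ arrays. In all 10 of the 40 genes called higher the value was larger on TGFβ replicate 1 than on TGFβ replicate 2, with median rises over the untreated mean of 0.74 and 0.64. Of all 1295 genes called higher 902 were larger on TGFβ replicate 1, with medians of 0.66 and 0.59, so the rises went the same way as most called genes. The gap was 0.99 for Col12a1, as read from values of 8.42 and 7.43, and 0.02 for Bmp1. Of the 5 genes that fell, 2 fell further on TGFβ replicate 1, as did 822 of all 1425 genes called lower. The labels give no account of how the cultures differed.

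**Figure D5:**
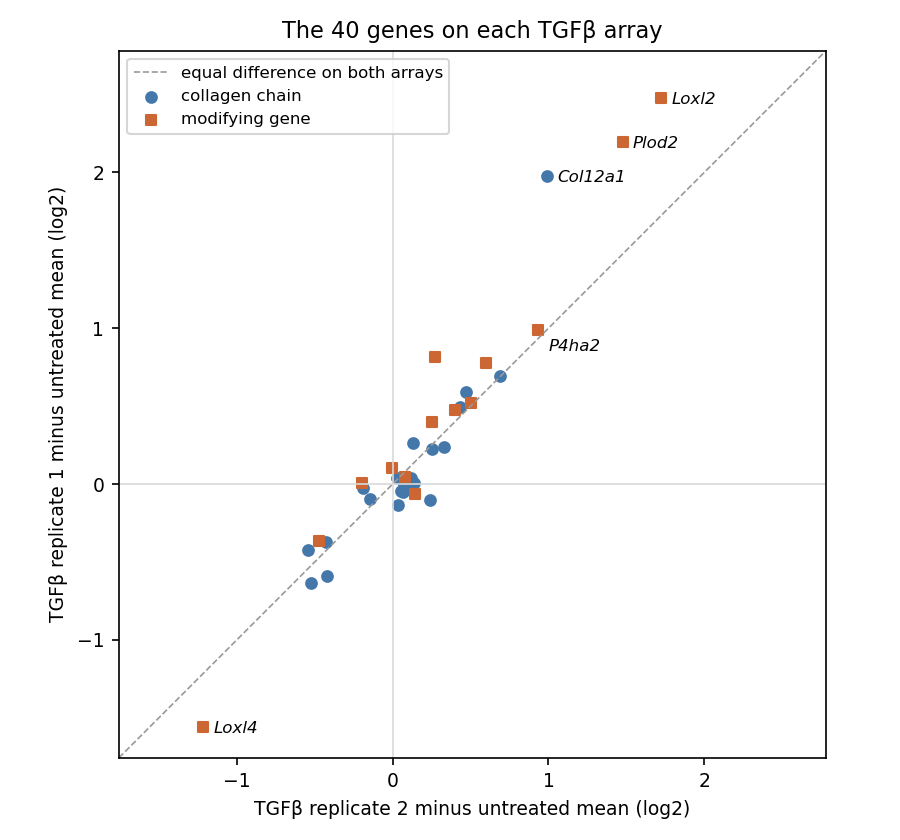
Difference from the untreated mean (log2) of each of the 40 genes on TGFβ replicate 1 (vertical axis) and TGFβ replicate 2 (horizontal axis), circles for collagen chains and squares for modifying genes; on the dashed line both arrays differ equally. Loxl2, Plod2 and Col12a1 lie above the line, at 2.48, 2.20 and 1.98 on TGFβ replicate 1 against 1.72, 1.47 and 0.99 on TGFβ replicate 2.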

How the data were processed

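Expression was measured on Affymetrix arrays in 2 untreated and 2 TGFβ-treated Py2T samples. The deposited log2 values per probe set were made by the authors with RMA in the R package oligo, per the submitters' processing notes, with no version named. Quantile normalization within RMA makes arrays alike in overall distribution, so a shift common to most genes would not show. No values were filtered or normalized further. Names came from the gene table of the array platform. The brightest probe set with 1 symbol stood for each gene, and Loxl2 was read from a probe set with several symbols, giving 19939 genes. Of the genes in the further lists, those without a probe set of 1 symbol were not used here.

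Both groups entered 1 limma fit (version 3.58.1, R 4.3.3, linear model per gene, empirical Bayes moderation, two-sided, 2 residual and 3.77 prior degrees of freedom), with Benjamini-Hochberg adjustment across the whole table. Errors are standard errors of the fit. With 2 arrays per group the smallest two-sided p of an exact permutation test is 0.333, so none was used. The labels say no more than biological replicates, so the p-values speak only for the spread among these 4 samples, which may be technical, and their number limits the precision. The fit was also run on simulated data with independent normal noise, which meets its assumptions and so cannot speak for the calls made here.

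The 40 genes, the further lists and the alternatives were chosen with earlier results of these data known. All 40 genes were named whatever their values, and each further list added its 3 strongest called rises and 3 strongest called falls, or fewer where fewer were called. Promoter sequences are from RefSeq, build GRCm38.p6. Apart from the promoter windows and the Col4a1 and Col4a2 starts, gene coordinates are left out because the array's build is not given in the sources used here.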

Additional observations from a re-analysis of the deposited data

How the results depend on the processing

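Median centring, cyclic loess, leaving out dim genes, averaging probe sets, an intensity trend with robust variances and dropping the probe set of Loxl2 (added after seeing the data) left every count within 1.5 times its value, and no gene named turned direction while called. Leaving out the dimmer 50% of genes removed 15 of the 40 genes. With every probe set tested, 609 genes were higher and 660 lower, of the 40 genes 6 and 1, and of the further lists 2 lower. With a 2-fold threshold the counts were 324 and 354, 3 and 1, and 8 and 1, and with treat against 0.5 they were 267 and 277, 2 and 1, and 6 and 1, since both ask for larger differences. Leaving out each array gave 741 to 1168 genes higher and 751 to 1093 lower, 6 to 9 and 1 to 3 of the 40 genes, and 15 to 21 and 1 to 5 of the further lists, with fewer samples in each fit. Without untreated replicate 1 the 40 genes gave 6 and 1. The labels do not say that replicate numbers pair the samples, and the differences between replicates 1 and 2 correlated at -0.21 over genes between the groups. With the replicate block 786 genes were higher and 839 lower, 7 and 2 of the 40 genes, and 2 of the further lists lower. A crossed pairing, added after seeing the data, gave 1683 and 1957 genes, and 12 and 6 of the 40. The causes were not tested. Background limits the folds of genes near or under the array's median.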
